A study of Mus musculus with 12 samples.

Results

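Beta-defensin genes were examined in medullary thymic epithelial cells (mTECs) of mice with and without Aire or Brg1. The genes were all those whose symbol begins with Defb followed by a digit and whose array probe set carries that symbol alone. This gave 42 of the 22154 genes measured, each read by 1 probe set, and 1 of them, Defb44-ps, is annotated as a transcribed pseudogene. RNA from sorted cells was hybridised to 12 single-channel Affymetrix mouse arrays, and values are given as log2 intensity. The cells came from C57BL/6 mice aged 4 weeks and were sorted as viable CD45-negative, Epcam+, UEA+ cells with low Ly51. High or low MHC class II split them into mTEChi, the more mature fraction, and mTEClo. The Aire line gave Aire+/+ and Aire-/- cells, and the Brg1 line gave Brg1+/+ and Brg1-/- cells. Each of the 4 genotypes had 2 mTEChi arrays, numbered 1 and 2, and 1 mTEClo array, numbered 1. The cells in which Brg1 was deleted, and the means of deletion, are not given in the sources used here. No label states whether the arrays of a group hold separate animals, and the p-values therefore reflect variation among these arrays, which may be technical.

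Beta-defensins are small secreted cationic peptides held in shape by disulphide bonds. They damage microbial membranes, and several also attract immune cells through the chemokine receptor CCR6. Some members are made by skin, gut and airway epithelium, constitutively or in response to microbes and cytokines, while many rodent members are made in the epididymis and coat sperm. In the thymus, mTECs transcribe many such tissue-restricted genes, which exposes developing T cells to their products. Aire is a transcriptional regulator needed for much of this expression, and Brg1, encoded by Smarca4, is the motor subunit of the SWI/SNF nucleosome remodeller.

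The medians of the 8 arrays numbered 1, among them all 4 mTEClo arrays, lay between 5.25 and 5.32 (log2 intensity), and those of the 4 arrays numbered 2 between 5.07 and 5.12. Among the mTEChi arrays, 31.5% of all genes and 8 of the 42 beta-defensin genes (19%) separated by number without overlap. What the number marks is not stated in the labels, so differences between arrays of 1 number are given where they bear on a result. Epcam read 8.41 to 9.29 and Krt8 8.78 to 10.80 over the 12 arrays, so both epithelial markers were present on each. For the targeted genes, mTEChi arrays gave 8.04 and 8.80 (Aire+/+) against 9.01 and 9.73 (Aire-/-) for Aire, and 6.13 and 6.89 (Brg1+/+) against 5.88 and 5.44 (Brg1-/-) for Smarca4. In mTEClo, wild type and knockout of the respective line gave 6.43 and 6.72 for Aire, and 5.95 and 5.47 for Smarca4. The probes may lie outside the deleted sequence, and the values serve as no check of genotype. Thymocyte markers, of which 7 of 9 were measured, summed to an intensity of 447 to 1182 on the mTEChi arrays other than Brg1-/- number 2, where the sum was 2225, and to 302 to 399 on the mTEClo arrays. Their part in the results below was not tested.

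A subset of the beta-defensin genes was lower in mTEChi without Aire. Of the 42 genes, 8 fell (19% of the family) and 0 rose, against 0.794% of all genes called in either direction, 0.772% called lower and 0.0226% called higher. A gene was called where limma's moderated test gave an adjusted p under 0.05 (Benjamini-Hochberg, all 22154 genes). Defb19 and Defb50 showed the largest measured intensity ratios, 42.2-fold and 41.2-fold lower, followed by Defb8 (31.7-fold), Defb45 (14.4-fold), Defb2 (11.7-fold), Defb37 (6.17-fold), Defb29 (4.59-fold) and Defb14 (2.85-fold). On the Aire-/- arrays Defb50 read near or below the 10th percentile of all genes, 3.71 and 3.40, as did Defb37, and Defb8 did on 1 array, so these ratios may understate the change and their order is not firm. The median difference over the 42 genes was -0.88 on the log2 scale, with a range from -5.40 to 1.25, against 0.06 over all genes. In a sorted bulk sample, fewer cells transcribing a gene and less RNA of it per cell cannot be told apart.

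The shift reached beyond the 8 called genes. Both Aire-/- arrays lay below both Aire+/+ arrays for 21 of the 42 genes, against 11.6% of all genes, and above both for 6, against 15.9% of all genes. The other 15 overlapped, with differences from -1.78 to 0.49. The 13 genes that were lower without overlap but not called were Defb1, Defb3, Defb4, Defb5, Defb11, Defb15, Defb23, Defb28, Defb36, Defb38, Defb39, Defb40 and Defb46, with differences from -3.18 to -0.82. The count of called genes rested on few arrays. Fits that leave out 1 mTEChi array hold fewer arrays for all genes, not only for this family. Counts from such fits, here and below, are given without the share over all genes. They do not show a loss of calls particular to this family. Without Aire+/+ number 1 or without Aire-/- number 1 only 2 of the 42 passed, Defb19 and Defb50, and without number 2 of either genotype 4 passed. Defb19 and Defb50 passed in each of the 8 fits that left out 1 mTEChi array. With the array number as a block, which leaves 2 residual degrees of freedom, 15 of the 42 passed, against 2.4% of all genes. They included all 8 called here. Defb3, Defb4, Defb11, Defb22, Defb28 and Defb40 also passed there as lower, and Defb42 as higher. Between arrays of 1 number, the 8 called genes differed by -5.66 to -1.33 (numbers 1) and by -5.20 to -1.69 (numbers 2). Of the 42 genes, 28 had differences below 0 in both, a count not made over all genes. Taking group means, 30 of the 42 (71.4%) lay below 0, against 41% of all genes.

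**Figure D1:**
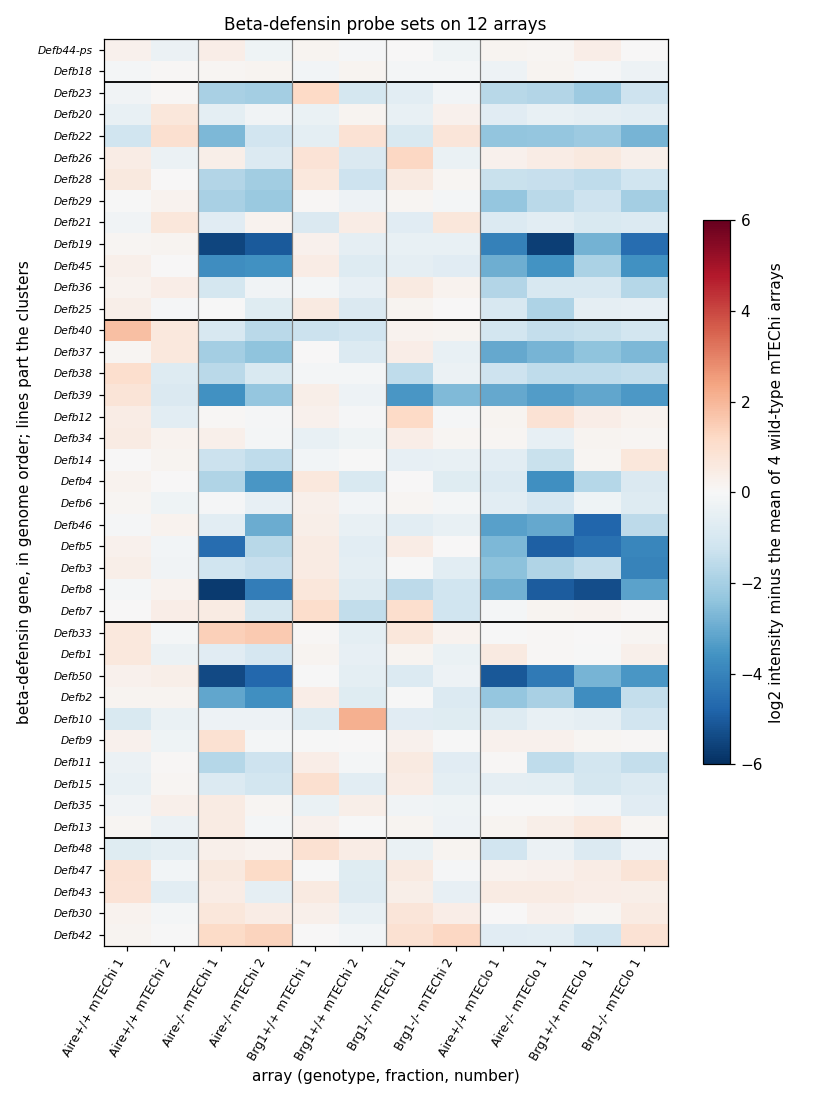
Log2 intensity of the 42 beta-defensin probe sets (rows, in genome order, with lines between neighbour clusters) on the 12 arrays (columns, by genotype, fraction and number), each relative to that gene's mean over the 4 wild-type mTEChi arrays; the colour scale runs from -6 (blue) to 6 (red). The blue blocks in the Aire-/- mTEChi columns include Defb19, Defb45, Defb8, Defb50 and Defb2, and the same genes are also blue in the mTEClo columns.

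By position in a RefSeq gene table (GRCm38.p6), with genes grouped where neighbours lie within 1000000 bases, the 42 genes formed 5 clusters. The cluster from Defb23 to Defb25 holds 11 genes, with 3 called lower without Aire and a median difference of -1.78. The cluster from Defb40 to Defb7 holds 14 genes, with 3 called lower and a median of -1.69. From Defb33 to Defb13 there are 10 genes, with 2 called lower and a median of -0.27. The cluster from Defb48 to Defb42 holds 5 genes, with none called and a median of 0.50, and Defb44-ps and Defb18 differed by 0.12 and 0.14. Called and uncalled genes stood side by side within the 3 larger clusters, as the plot of the knockout effects in genome order shows.

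**Figure D2:**
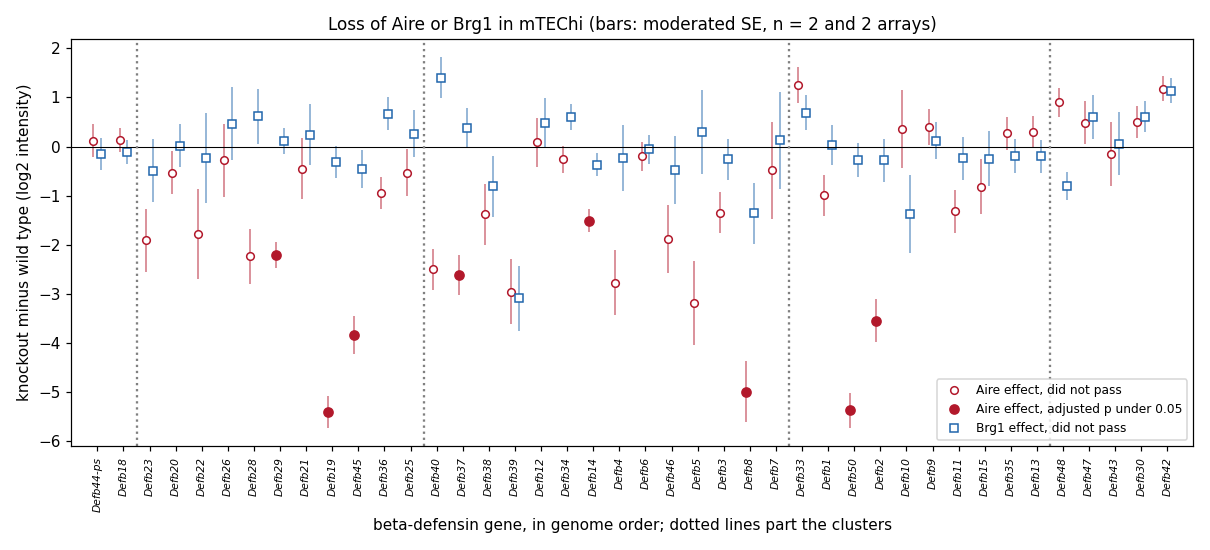
Knockout minus wild-type difference in mTEChi (log2 intensity, vertical axis) for each beta-defensin gene in genome order, for Aire (circles, filled where the adjusted p was under 0.05) and Brg1 (squares); bars are limma's moderated standard errors with 2 and 2 arrays. The 8 filled circles lie between -5.40 and -1.51, and no Brg1 difference passed.

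In the cluster from Defb23 to Defb25, the neighbours Defb19 and Defb45 fell, as did Defb29. Defb21, which lies between Defb29 and Defb19, was not called (-0.45, SE 0.621), and its knockout and wild-type arrays overlapped. Defb19, described in the Sertoli cells of the testis, read, on mTEChi arrays, 10.97 and 11.01 in Aire+/+, 5.37 and 5.81 in Aire-/-, 11.12 and 10.33 in Brg1+/+, and 10.41 and 10.42 in Brg1-/-. Defb19 in mTEClo read 6.80 in Aire+/+, 5.23 in Aire-/-, 8.04 in Brg1+/+ and 6.31 in Brg1-/-. The Aire-/- mTEChi arrays thus stood far below every other mTEChi array and inside the mTEClo range, while the Brg1-/- arrays lay within the range of their wild type. The Aire difference was -5.40 (SE 0.319, n = 2 and 2, limma adjusted p = 0.00079), and it was -5.60 between arrays numbered 1 and -5.20 between arrays numbered 2.

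Defb45 read, on mTEChi arrays, 8.76 and 8.47 in Aire+/+, 4.72 and 4.82 in Aire-/-, 8.90 and 7.71 in Brg1+/+, and 7.91 and 7.78 in Brg1-/-. Defb45 in mTEClo read 5.51, 4.86, 6.55 and 4.82 in Aire+/+, Aire-/-, Brg1+/+ and Brg1-/-, the order kept for mTEClo values below. Without Aire the mTEChi level was at the bottom of the mTEClo range and apart from every other mTEChi array. The Aire difference was -3.84 (SE 0.387, limma adjusted p = 0.00624). Defb29 read, on mTEChi arrays, 7.11 and 7.37 in Aire+/+, 5.17 and 4.91 in Aire-/-, 7.23 and 6.84 in Brg1+/+, and 7.26 and 7.03 in Brg1-/-, with mTEClo values of 4.81, 5.53, 5.88 and 5.11. Again only the Aire-/- mTEChi arrays were low among the mTEChi arrays. Its Aire difference was -2.20 (SE 0.264, limma adjusted p = 0.0137).

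Defb25, the last gene of the same cluster, was not called. Neither was Defb36, which lies between Defb45 and Defb25, at -0.94 without Aire (SE 0.33, limma adjusted p = 0.645). Defb25 read, on mTEChi arrays, 9.65 and 9.22 in Aire+/+, 9.26 and 8.55 in Aire-/-, 9.84 and 8.42 in Brg1+/+, and 9.46 and 9.31 in Brg1-/-, and 8.30, 7.42, 8.72 and 8.79 in mTEClo. Knockout and wild-type arrays overlapped in both lines, with an Aire difference of -0.53 (SE 0.479, limma adjusted p = 1). Among the other members here, Defb28 differed by -2.23 (SE 0.56, adjusted p = 0.243) and Defb22, a coat protein of epididymal sperm, by -1.78 (SE 0.911, adjusted p = 1) without Aire. The Defb22 difference was -1.48 between arrays numbered 1 and -2.09 between those numbered 2. With the array number as a block, the Defb22 difference had an SE of 0.225 and passed (limma adjusted p = 0.00865). Defb22 and Defb26 also varied with the array number: Defb22 was 1.69 higher and Defb26 1.32 lower on mTEChi arrays numbered 2 than on those numbered 1.

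The cluster from Defb40 to Defb7 begins with genes described in the epididymis. Defb37 read, on mTEChi arrays, 5.69 and 6.19 in Aire+/+, 3.50 and 3.13 in Aire-/-, 5.58 and 4.74 in Brg1+/+, and 5.94 and 5.12 in Brg1-/-. Defb37 in mTEClo read 2.47, 2.78, 3.12 and 2.87. It was high in mTEChi of the 3 genotypes with Aire and just above the mTEClo range in Aire-/- mTEChi. The Aire difference was -2.62 (SE 0.407, limma adjusted p = 0.0398). Defb40 just missed the threshold, with an Aire difference of -2.50 (SE 0.416, adjusted p = 0.0513).

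Defb39 was low in mTEChi of both knockouts. It read, on mTEChi arrays, 6.42 and 4.77 in Aire+/+, 1.98 and 3.32 in Aire-/-, 6.00 and 5.33 in Brg1+/+, and 2.15 and 3.0 in Brg1-/-. Defb39 in mTEClo read 2.57, 2.27, 2.50 and 2.20. All 4 wild-type mTEChi arrays lay above all other arrays. Neither knockout difference passed: it was -2.95 for Aire (SE 0.654, limma adjusted p = 0.157) and -3.09 for Brg1 (SE 0.654, limma adjusted p = 1). The Aire difference was -4.44 between arrays numbered 1 and -1.45 between those numbered 2, and the Brg1 difference was -3.85 and -2.33.

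Defb14 and Defb4 are epithelial members, induced in skin and mucosa by inflammatory signals, and Defb14 is a ligand of CCR6. Defb14 read, on mTEChi arrays, 7.26 and 7.38 in Aire+/+, 5.93 and 5.69 in Aire-/-, 7.09 and 7.20 in Brg1+/+, and 6.76 and 6.78 in Brg1-/-. Defb14 in mTEClo read 6.58, 5.89, 7.36 and 7.89, so the mTEClo arrays of the Brg1 line were higher than their mTEChi arrays. Without Aire it differed by -1.51 (SE 0.23, limma adjusted p = 0.0377), the smallest among the 8 called genes. It passed in 0 of the 8 fits that left out 1 mTEChi array (adjusted p from 0.0556 to 0.284).

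Defb4 read, on mTEChi arrays, 9.57 and 9.38 in Aire+/+, 7.56 and 5.85 in Aire-/-, 10 and 8.46 in Brg1+/+, and 9.38 and 8.61 in Brg1-/-. Defb4 in mTEClo read 8.53, 5.69, 7.64 and 8.50, so the Aire-/- arrays were the lowest in mTEChi and in mTEClo. The mTEChi Aire difference was -2.77 (SE 0.666, limma adjusted p = 0.209), which did not pass.

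Further along the same cluster lie Defb6, Defb46, Defb5, Defb3 and Defb8, whose sequences before the gene start resemble one another. Defb7, the next gene, resembles them too, with 167 to 192 identical bases, 75.7% to 85.7% of those aligned. Its sequence is not printed, and its Aire difference was -0.48 (SE 0.99, limma adjusted p = 1). Between any 2 of the 5 printed, 172 to 220 bases were identical, 78.9% to 89.4% of the aligned bases. Defb3 and Defb8 shared 220 of 246 aligned bases and Defb6 and Defb8 shared 187 of 226. The 250 bases before each start are printed here because these related sequences belong to genes with Aire differences from -0.20 to -4.99. They are from RefSeq (GRCm38.p6), 5′ to 3′ on the gene's strand, with the letters TATATAA in capitals. The regions are chr8:19225228-19225477 (plus strand) for Defb6, chr8:19293111-19293360 (plus) for Defb3, chr8:19239666-19239915 (plus) for Defb46, chr8:19247342-19247591 (plus) for Defb5 and chr8:19447607-19447856 (minus) for Defb8.
Defb6: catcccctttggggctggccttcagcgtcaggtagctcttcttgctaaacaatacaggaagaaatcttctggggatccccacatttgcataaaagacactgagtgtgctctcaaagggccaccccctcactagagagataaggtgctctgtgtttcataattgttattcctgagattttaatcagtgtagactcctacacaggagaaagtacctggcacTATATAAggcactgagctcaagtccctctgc
Defb3: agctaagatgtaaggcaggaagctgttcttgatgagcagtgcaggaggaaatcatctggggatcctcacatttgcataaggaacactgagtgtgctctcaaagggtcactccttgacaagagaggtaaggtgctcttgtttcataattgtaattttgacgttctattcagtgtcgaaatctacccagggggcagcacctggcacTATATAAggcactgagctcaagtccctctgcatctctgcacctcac
Defb46: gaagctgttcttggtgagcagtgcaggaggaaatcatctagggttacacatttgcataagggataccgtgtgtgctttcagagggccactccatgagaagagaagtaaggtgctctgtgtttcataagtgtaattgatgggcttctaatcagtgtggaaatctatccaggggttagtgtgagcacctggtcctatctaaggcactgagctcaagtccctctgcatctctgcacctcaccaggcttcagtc
Defb5: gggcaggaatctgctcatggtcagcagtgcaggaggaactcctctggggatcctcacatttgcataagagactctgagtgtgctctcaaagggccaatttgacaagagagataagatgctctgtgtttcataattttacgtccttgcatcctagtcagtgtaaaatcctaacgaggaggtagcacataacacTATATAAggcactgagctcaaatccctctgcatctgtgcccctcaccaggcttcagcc
Defb8: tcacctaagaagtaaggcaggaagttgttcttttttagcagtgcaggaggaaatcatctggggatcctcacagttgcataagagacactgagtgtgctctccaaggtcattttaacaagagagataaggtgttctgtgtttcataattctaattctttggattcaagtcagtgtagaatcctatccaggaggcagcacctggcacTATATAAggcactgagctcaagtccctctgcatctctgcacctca

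The TATATAA match begins 31 bases before the start of Defb6, 46 before Defb3, 58 before Defb5 and 45 before Defb8, and Defb46 has none in its 250 bases. On the gene's strand these letters occurred in 5 of 29 windows of 300 bases around the starts of 28 of the 42 genes (17.2%), in Defb7 as well as the 4 above, against 2.2% of 32851 such windows over all genes. Searched on both strands they occurred in 17.2% and 3.24%. This motif was searched after the sequences were seen. A match is a description of the letters, not of a factor bound there. Of the genes called lower without Aire, only Defb8, Defb29 and Defb45 had a window, so these shares do not describe the others. The beta-defensin windows also held few CpG pairs, with a median of 2 against 7 over all windows. GGGCGG occurred on either strand in 3.45% of them against 35.7% of all windows, TATAAA, which does not lie within TATATAA, in 17.2% against 13.6%, and CCAAT in 48.3% against 37.4%.

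The 5 genes with printed sequences spanned a wide range of Aire differences. Defb6, described in skin, tongue and skeletal muscle, read, on mTEChi arrays, 12.74 and 12.37 in Aire+/+, 12.56 and 12.14 in Aire-/-, 12.91 and 12.43 in Brg1+/+, and 12.75 and 12.50 in Brg1-/-. Defb6 in mTEClo read 11.96, 11.59, 12.35 and 11.82. All groups lay close together and both knockouts overlapped their wild types. Its Aire difference was -0.20 (SE 0.296, limma adjusted p = 1), and it was 0.01 without Aire-/- number 2.

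Defb8 was at the other end. It read, on mTEChi arrays, 9.01 and 9.32 in Aire+/+, 3.38 and 4.98 in Aire-/-, 9.83 and 8.36 in Brg1+/+, and 7.54 and 7.93 in Brg1-/-, and 6.25, 4.13, 3.79 and 5.94 in mTEClo. The Aire-/- mTEChi arrays were inside or below the mTEClo range, and the Brg1-/- arrays lay below their wild type without overlap but well above the Aire-/- arrays. Loss of Aire gave a difference of -4.99 (SE 0.617, limma adjusted p = 0.0152) and the Brg1 difference was -1.36 (SE 0.617, limma adjusted p = 1).

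Defb3, an inducible airway defensin, read, on mTEChi arrays, 12.33 and 11.74 in Aire+/+, 10.79 and 10.58 in Aire-/-, 12.44 and 11.37 in Brg1+/+, and 11.94 and 11.35 in Brg1-/-. Defb3 in mTEClo read 9.49, 10.15, 10.52 and 7.98. The Aire-/- arrays were lower than the other mTEChi arrays and above the Aire-/- mTEClo array. The Aire difference of -1.35 (SE 0.416, limma adjusted p = 0.463) did not pass.

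Defb5 and Defb46 varied most between the Aire-/- arrays. Defb5 read, on mTEChi arrays, 10.14 and 9.70 in Aire+/+, 5.28 and 8.21 in Aire-/-, 10.35 and 9.25 in Brg1+/+, and 10.31 and 9.89 in Brg1-/-, and 7.17, 4.97, 5.39 and 5.94 in mTEClo. Both Aire-/- arrays were the lowest in mTEChi, but they differed by more than any other pair of mTEChi arrays of 1 genotype for that gene. Its Aire effect was -3.18 (SE 0.853, limma adjusted p = 0.311), and without Aire-/- number 2 it was -4.64 (limma adjusted p = 0.032).

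Defb46 read, on mTEChi arrays, 8.28 and 8.55 in Aire+/+, 7.72 and 5.36 in Aire-/-, 8.68 and 7.88 in Brg1+/+, and 7.71 and 7.88 in Brg1-/-. Defb46 in mTEClo read 5.09, 5.28, 3.58 and 6.76. Array number 1 of Aire-/- was near the Brg1-/- level and number 2 near the mTEClo level. Its Aire difference was -1.88 (SE 0.686, limma adjusted p = 0.694). Similar members may cross-hybridise to one probe set, and probe sequences were not analysed here.

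In the cluster from Defb33 to Defb13, the neighbours Defb50 and Defb2 fell and Defb1 and Defb33 did not pass. Defb50 read, on mTEChi arrays, 8.48 and 8.60 in Aire+/+, 2.82 and 3.53 in Aire-/-, 8.23 and 7.65 in Brg1+/+, and 7.40 and 7.95 in Brg1-/-. Defb50 in mTEClo read 3.16, 4.01, 5.44 and 4.75. The Aire-/- mTEChi arrays were apart from every other mTEChi array and below the Aire-/- mTEClo array. Between Aire genotypes the difference was -5.37 (SE 0.353, limma adjusted p = 0.00125), with -5.66 and -5.07 between arrays numbered 1 and 2.

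Defb2, an inducible epithelial defensin, read, on mTEChi arrays, 8.03 and 8.04 in Aire+/+, 4.78 and 4.20 in Aire-/-, 8.28 and 7.16 in Brg1+/+, and 7.84 and 7.04 in Brg1-/-. Defb2 in mTEClo read 5.58, 5.91, 4.16 and 6.43, so in the Aire-/- genotype mTEChi lay below mTEClo. Its Aire difference was -3.54 (SE 0.443, limma adjusted p = 0.0155).

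Defb1, made constitutively by many epithelia, read, on mTEChi arrays, 8.74 and 7.76 in Aire+/+, 7.43 and 7.09 in Aire-/-, 8.28 and 7.61 in Brg1+/+, and 8.26 and 7.69 in Brg1-/-. Defb1 in mTEClo read 8.62, 8.17, 8.08 and 8.38, at the upper end of the mTEChi range. The Aire-/- arrays were the lowest of all, with a difference of -0.99 (SE 0.414, limma adjusted p = 0.873).

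Defb33 read, on mTEChi arrays, 6.37 and 5.61 in Aire+/+, 7.16 and 7.33 in Aire-/-, 5.84 and 5.18 in Brg1+/+, and 6.42 and 5.97 in Brg1-/-, and 5.71, 5.84, 5.76 and 5.87 in mTEClo. It was higher in both knockouts than in their wild types without overlap. The Aire difference of 1.25 (SE 0.361, limma adjusted p = 0.387), the highest in the family, did not pass.

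In the cluster from Defb48 to Defb42, 4 of the 5 members had Aire differences above 0. Over all genes only 41% had differences below 0, so values above 0 are not particular to this cluster. Defb42, described in the epididymis, read, on mTEChi arrays, 9.84 and 9.66 in Aire+/+, 10.84 and 11.02 in Aire-/-, 9.72 and 9.52 in Brg1+/+, and 10.58 and 10.93 in Brg1-/-. Defb42 in mTEClo read 9.01, 9.06, 8.52 and 10.54. The mTEChi arrays of both knockouts stood above all 4 wild-type mTEChi arrays, and the Brg1-/- mTEClo array stood above the other 3 mTEClo arrays. The difference was 1.18 for Aire (SE 0.25, limma adjusted p = 0.132) and 1.14 for Brg1 (SE 0.25, limma adjusted p = 1), and neither passed.

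Defb48 read, on mTEChi arrays, 4.07 and 4.20 in Aire+/+, 5.09 and 4.99 in Aire-/-, 5.71 and 5.23 in Brg1+/+, and 4.39 and 4.95 in Brg1-/-, and 3.66, 4.47, 4.00 and 4.48 in mTEClo. The Aire-/- arrays were above and the Brg1-/- arrays below their own wild types, by 0.90 and -0.80 (SE 0.292 for each, limma adjusted p = 0.524 and 1). The wild types of the lines themselves did not overlap.

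Defb30 read, on mTEChi arrays, 5.80 and 5.45 in Aire+/+, 6.23 and 6.03 in Aire-/-, 5.89 and 5.14 in Brg1+/+, and 6.28 and 5.98 in Brg1-/-, and 5.57, 5.85, 5.70 and 6.07 in mTEClo. Both knockouts were above their wild types without overlap, by 0.50 for Aire (SE 0.319, limma adjusted p = 1) and 0.61 for Brg1. Defb47 read, on mTEChi arrays, 6.38 and 5.35 in Aire+/+, 6.06 and 6.65 in Aire-/-, 5.47 and 4.77 in Brg1+/+, and 6.03 and 5.43 in Brg1-/-, and 5.72, 5.73, 5.95 and 6.27 in mTEClo. Its groups overlapped, and its Aire difference of 0.49 was -0.03 without Aire+/+ number 2.

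The second comparison asked which members differed between the maturation fractions of wild-type cells. Of the 42 genes, 10 were called, each higher in mTEChi (23.8% of the family, against 2.56% of all genes called in either direction and 1.93% called higher). They were Defb8, Defb46, Defb50, Defb19, Defb39, Defb2, Defb37, Defb45, Defb3 and Defb29. The largest differences were 4.11 for Defb8 (SE 0.534, n = 4 and 2, limma adjusted p = 0.0111), 4.01 for Defb46 (SE 0.594, adjusted p = 0.0163) and 3.94 for Defb50 (SE 0.306, adjusted p = 0.00229). Defb19 was higher by 3.44 (SE 0.277, adjusted p = 0.00253), a 10.8-fold difference. The median over the family was 0.83, against -0.10 over all genes.

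All 4 wild-type mTEChi arrays lay above both wild-type mTEClo arrays for 20 of the 42 genes, against 11.4% of all genes, and below both for 0, against 17.7% of all genes. Epithelial members that did not pass included Defb1 (-0.25, SE 0.358, limma adjusted p = 0.795) and Defb14 (0.26, SE 0.199, adjusted p = 0.642). Defb6 was 0.46 higher in mTEChi (SE 0.257, adjusted p = 0.529) and Defb5 3.58 higher (SE 0.739, adjusted p = 0.0566), and neither passed. Within the Aire line 5 genes passed, Defb19, Defb29, Defb37, Defb45 and Defb50, against 0.587% of all genes, and within the Brg1 line 2 passed, Defb19 and Defb8, against 0.361% of all genes. Between arrays numbered 1 alone, the 10 called genes were higher in mTEChi by 1.82 to 4.40. Summed marker intensities of other cell types differed between the fractions, but single markers did not all move the same way. The 4 cortical epithelial markers, all measured, summed to an intensity of 1021 to 1771 on the mTEClo arrays and 442 to 811 on the mTEChi arrays. Markers of dendritic cells, macrophages and B cells, 6 of 7 measured, summed to 541 to 664 on the mTEClo arrays and 711 to 1263 on the mTEChi arrays. Between the wild-type fractions, 2 of the 4 cortical markers had differences below 0, and the median was 0.09. Among the other 6, 2 were below 0, with a median of 0.12. None of these 10 markers passed between the wild-type fractions, and their part in the results was not tested. With 1 mTEClo array per genotype, its spread was taken from the replicated mTEChi arrays.

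The wild-type fraction difference and the Aire effect share the Aire+/+ mTEChi arrays, so their values are set side by side and not compared. Defb50 had a fraction difference of 3.94 and an Aire difference of -5.37, Defb19 of 3.44 and -5.40, and Defb8 of 4.11 and -4.99. Defb46 had 4.01 and -1.88, Defb3 1.96 and -1.35, and Defb14 0.26 and -1.51.

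**Figure D3:**
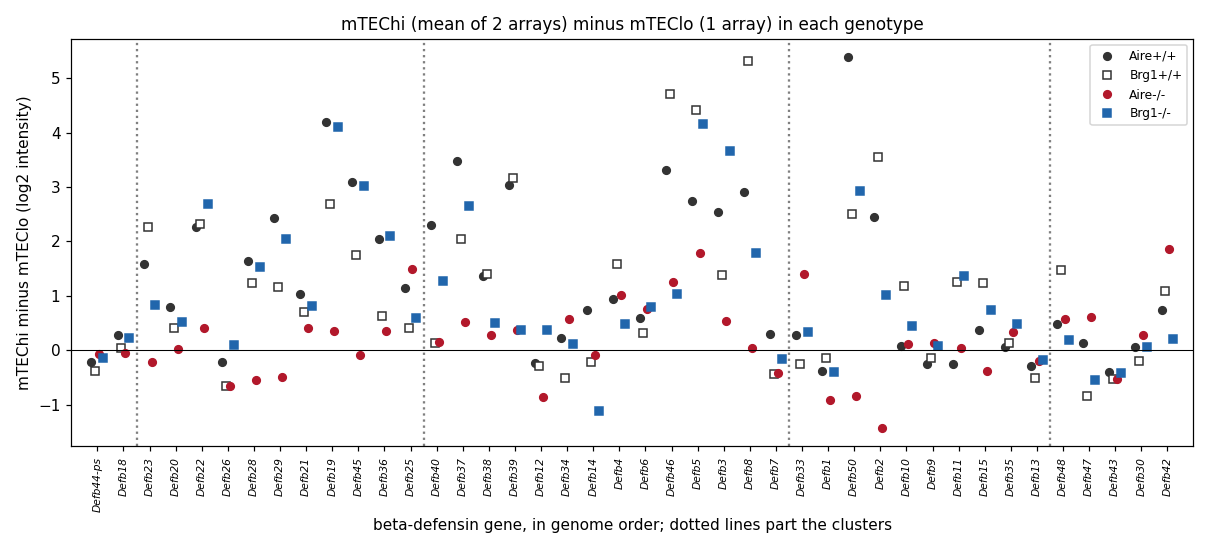
Difference between mTEChi (mean of 2 arrays) and mTEClo (1 array) in log2 intensity (vertical axis) for each beta-defensin gene in genome order, by genotype. Defb19 lies at 4.19 in Aire+/+, 2.69 in Brg1+/+ and 4.11 in Brg1-/-, and at 0.36 in Aire-/-.

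The same fractions were compared in each knockout. Without Aire, 0 of the 42 genes passed in limma's test (against 0.469% of all genes), and 4 had an unadjusted p under 0.05 (against 6.86% of all genes). The family's median difference was 0.15. The Aire-/- mTEChi and mTEClo levels of Defb19 differed by 0.36 (SE 0.391, n = 2 and 1, adjusted p = 0.999), of Defb50 by -0.84 (SE 0.432, adjusted p = 0.869) and of Defb8 by 0.05 (SE 0.755, adjusted p = 0.999). The largest difference was that of Defb42, 1.87 higher in mTEChi (SE 0.306, adjusted p = 0.063).

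Without Brg1, 4 of the 42 genes passed and each was higher in mTEChi (against 0.582% of all genes in either direction and 0.542% higher). Defb19 was higher by 4.11 (SE 0.391, limma adjusted p = 0.0109), Defb3 by 3.66 (SE 0.51, adjusted p = 0.0399), Defb45 by 3.02 (SE 0.473, adjusted p = 0.0498) and Defb50 by 2.92 (SE 0.432, adjusted p = 0.0432). Defb5 had a difference of 4.16 that did not pass (SE 1.05, adjusted p = 0.253), and Defb14 one of -1.12 (SE 0.281, adjusted p = 0.253). Without Brg1-/- number 1 or number 2, 0 passed, and without any 1 of the 4 mTEChi arrays of the Aire line 1 passed.

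Loss of Brg1 in mTEChi gave no called gene in the family. In limma's test 0 of 42 passed, as did 0% of all 22154 genes; 4 of the 42 had an unadjusted p under 0.05, against 1.36% of all genes. The median difference was -0.08, against 0.00 over all genes. Both Brg1-/- arrays lay below both Brg1+/+ arrays for 5 genes (9.62% of all genes) and above both for 6 (9.77% of all genes). The largest differences were those of Defb39 (-3.09), Defb40 (1.40, SE 0.416), Defb10 (-1.37), Defb8 (-1.36) and Defb42 (1.14). The Defb10 value came with a single high array, Brg1+/+ number 2 at 5.10, where its other 11 arrays read 1.83 to 2.69. Of the other genes called without Aire, Brg1 differences were -0.31 (Defb19, SE 0.319), -0.27 (Defb50, SE 0.353), -0.46 (Defb45, SE 0.387), -0.28 (Defb2, SE 0.443), 0.37 (Defb37, SE 0.407), 0.11 (Defb29, SE 0.264) and -0.37 (Defb14, SE 0.23).

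The Brg1 effect and the Aire effect rest on different arrays, and their difference was tested. It passed for 2 of the 42 genes (against 0.135% of all genes), Defb50 at 5.10 (SE 0.499, limma adjusted p = 0.02) and Defb19 at 5.09 (SE 0.452, limma adjusted p = 0.0135). In both, the Aire difference was the lower. Next were Defb40 at 3.90 (SE 0.588, adjusted p = 0.0898) and Defb45 at 3.38 (SE 0.547, adjusted p = 0.113). Without any 1 of Aire+/+ number 1 or 2, Aire-/- number 1, or Brg1-/- number 1 or 2, 0 of the family passed, and without Brg1+/+ number 2 only Defb19 passed. Across the 42 genes the effects correlated with a Pearson r of 0.319 and a Spearman rho of 0.375, a description over genes that share the same arrays and are not independent. For 4 genes, Defb8, Defb14, Defb38 and Defb39, both knockouts were lower than their own wild types without overlap (against 1.77% of all genes), and for 3, Defb30, Defb33 and Defb42, both were higher (against 2.29% of all genes).

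**Figure D4:**
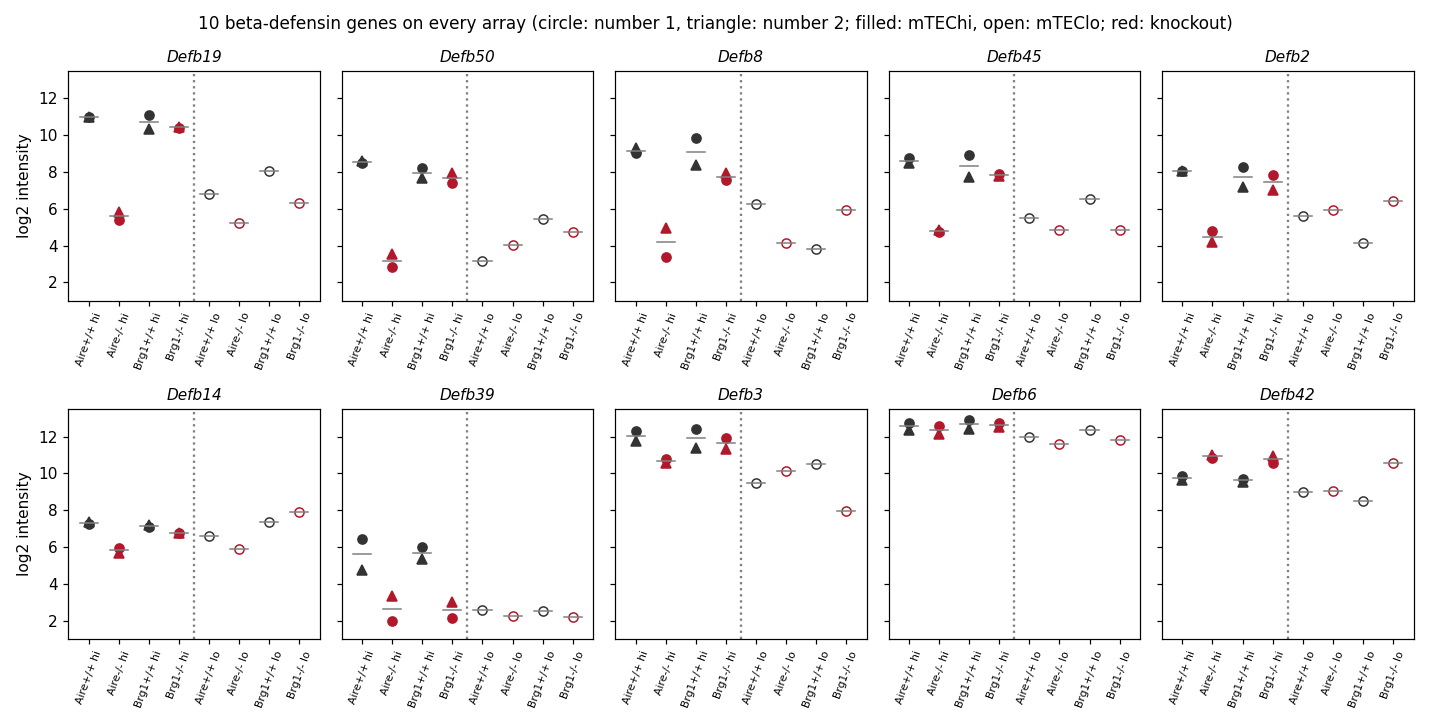
Log2 intensity of 10 beta-defensin genes on each of the 12 arrays (circles are arrays numbered 1, triangles arrays numbered 2; filled is mTEChi, open is mTEClo; red is knockout, black is wild type; short lines are group means). Defb19, Defb50, Defb45 and Defb2 are low in Aire-/- mTEChi alone among the mTEChi groups. Defb8 is lowest in Aire-/- mTEChi and is also lower in Brg1-/- than in Brg1+/+ mTEChi without overlap. Defb39 is low in both knockouts, Defb6 is level, and Defb42 is higher in both knockouts.

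In mTEClo each genotype has 1 array, and the tests rest on the spread of the mTEChi groups. For Aire, 0 of the 42 genes and 0% of all genes passed in limma's test, and 4 of the 42 had an unadjusted p under 0.05 against 1.35% of all genes. These had differences of -2.84 (Defb4, SE 0.942), -2.12 (Defb8), -1.60 (Defb11) and -1.57 (Defb19), between 1 array and 1 array. For Brg1, likewise, 0 of 42 and 0% of all genes passed, and 7 of the 42 had an unadjusted p under 0.05 against 1.72% of all genes. Their knockout minus wild-type differences, again between single arrays, were 3.18 for Defb46, 2.27 for Defb2, 2.15 for Defb8, 2.02 for Defb42, -2.54 for Defb3, -1.73 for Defb19 and -1.73 for Defb45.

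Whether the Aire effect differed between the fractions was tested as well. In limma's test 0 of the 42 genes and 0% of all genes passed, and 11 of the 42 had an unadjusted p under 0.05, against 2.47% of all genes. The largest difference was that of Defb50, whose effect was -5.37 in mTEChi and 0.85 in mTEClo, a difference of -6.22 (SE 0.612, adjusted p = 0.0966). For Defb2 it was -3.87 (SE 0.768, adjusted p = 0.498), for Defb19 -3.83 (SE 0.553, adjusted p = 0.208) and for Defb29 -2.92 (SE 0.458, adjusted p = 0.245).

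Other antimicrobial genes and the genes of the beta-defensin response were examined from lists drawn up with earlier results of these data known. Of 26 measured genes of other antimicrobial peptides and proteins, 5 were lower without Aire in mTEChi, against 0.772% of all genes. None was higher, against 0.0226% of all genes, and the median difference was -1.16, against 0.06 over all genes. Reg3b, an antibacterial lectin of the gut, fell by 3.54 (SE 0.312, limma adjusted p = 0.00352) and the cathelicidin Camp by 2.44 (SE 0.341, adjusted p = 0.026). The other 3 were the protease inhibitor Slpi (-2.58), the goblet cell protein Retnlb (-3.42) and the gastrokine Gkn2 (-4.74), which is better known as a stomach mucosal protein. For Brg1 0 of the 26 passed, with a median of -0.02. In wild-type cells 9 of the 26 were higher in mTEChi, against 1.93% of all genes. Among them were Camp, by 3.42 (SE 0.296, limma adjusted p = 0.00275), and Ang4, a Paneth cell ribonuclease, by 2.98 (SE 0.25, adjusted p = 0.00275).

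Of 26 measured genes for beta-defensin receptors and for the sensors, cytokine receptors and transcription factors that induce these genes, 0 passed for Aire, with a median of 0.04, and 0 for Brg1, with a median of -0.04. Ccl20, the chemokine that shares CCR6 with beta-defensins, had the smallest adjusted p for Aire, at -1.03 (SE 0.332, limma adjusted p = 0.518). Between wild-type fractions 1 of the 26 passed, against 2.56% of all genes. It was Ifngr1, lower in mTEChi, with a difference of -1.59 (SE 0.261, limma adjusted p = 0.0246).

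Genes of epididymal epithelium outside the defensin family were read because many members are epididymal. Of 15 measured, 1 fell without Aire (against 0.772% of all genes), the lipocalin Lcn8, by 4.59 (SE 0.342, limma adjusted p = 0.00218). Differences lay below 0 for 13, against 41% of all genes, and the median was -0.52. The summed intensity of the 15 genes was 1256 and 1859 in Aire+/+ mTEChi, 452 and 504 in Aire-/-, 1394 and 1557 in Brg1+/+, 1171 and 1399 in Brg1-/-, and 449 to 561 in mTEClo. In wild-type cells 4 of the 15 were higher in mTEChi, against 1.93% of all genes. These were Lcn8, by 4.64 (SE 0.296, limma adjusted p = 0.00102), Cst11, Spink11 and Bsph2. Markers of cornified keratinocytes, another source of beta-defensins, gave no call of 7, with a median of -0.47 for Aire and a summed intensity of 815 to 1101 in Aire+/+ and 594 to 632 in Aire-/- mTEChi. The part of either cell type in the results was not tested. Mature mTEC markers gave 0 calls of 8 for Aire, with a median of 0.18. In wild-type mTEChi 3 of the 8 were higher, against 1.93% of all genes, including Cd80 by 3.05 (SE 0.377, limma adjusted p = 0.0101).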

How the data were processed

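RNA of 12 sorted samples was hybridised to Affymetrix mouse arrays. The deposited values are linear intensities of 33732 probe sets per array, each on a 0.01 grid of log2. RMA, Transcriptome Analysis Console and Affymetrix Expression Console are named in the submitters' processing notes. Their versions and order, and the genome build, are not given in the sources used here. No detection p was used, so the level at which a probe set exceeds background is not known, and differences of dim genes are compressed.

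Values were turned into log2 with no further normalization. Probe sets with 1 gene symbol in the platform annotation were kept, and the brightest per gene, which left 22154 genes. limma 3.58.1 (R 4.3.3; lmFit, eBayes) fitted 8 group means over 12 arrays, with Benjamini-Hochberg adjustment over all genes, two-sided. SE is limma's moderated standard error. The steps were tested on simulated data. Members, lists and tests were chosen with earlier results of these data known. Array values are given for members called in any comparison, for the 10 members with the highest mean in wild-type mTEChi, for the 5 highest and 5 lowest Aire differences, and for Defb1, Defb2, Defb3, Defb4 and Defb14. Other members and their values were named after being seen. Levels of members were not compared with one another as a result. Across probe sets, levels were ranked to choose probe sets and members, set against the 10th percentile of all genes, and summed over marker lists. Promoter windows are from RefSeq, matched by symbol, 250 bases before to 50 after a start. Alternatives were an array-number block, each mTEChi array left out, other scalings, filters and variance models, and subsets of arrays.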

Additional observations from a re-analysis of the deposited data

Results flagged for a closer look

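For 2 beta-defensin genes the Brg1 effect differed from the Aire effect in mTEChi by a test of the difference itself. It was 5.09 for Defb19 (SE 0.452, limma adjusted p = 0.0135) and 5.10 for Defb50 (SE 0.499, limma adjusted p = 0.02) on the log2 scale. Both Aire-/- arrays were lower than both Aire+/+ arrays in each gene, while the Brg1-/- and Brg1+/+ arrays overlapped. Leaving out 1 mTEChi array at a time kept Defb19 past the threshold in 3 of 8 fits (adjusted p from 0.0163 to 0.124) and Defb50 in 2 of 8 (adjusted p from 0.0337 to 0.14). Groups had at most 2 arrays, so no array was examined for its distance from its group.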

How the results depend on the processing

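Precision is limited by 2 mTEChi arrays and 1 mTEClo array per genotype. Counts with 1 mTEChi array left out are given without the share over all genes, which lose the same array. With 1 mTEChi array left out, the number of called members ranged from 2 to 9 for the Aire effect in mTEChi (8 with all arrays), from 8 to 11 for wild-type mTEChi minus mTEClo (10), from 0 to 3 for the Brg1 effect minus the Aire effect (2) and from 0 to 3 for mTEChi minus mTEClo in Brg1-/- (4); it stayed at 0 for the other 5 comparisons. With the replicate number as a block, which leaves 2 residual degrees of freedom, 15 members passed for Aire in mTEChi (all 8, with Defb3, Defb4, Defb11, Defb22, Defb28 and Defb40 lower and Defb42 higher; 2.4% of all genes), 17 for wild-type mTEChi minus mTEClo (6.92%), 8 for the Brg1 minus Aire effect (0.907%), 10 for mTEChi minus mTEClo in Brg1-/- (2.78%), 1 (Defb42) for the same in Aire-/- (2.28%), and 4 (Defb2, Defb19, Defb29 and Defb50) for the Aire effect in mTEChi minus that in mTEClo (0.284%). No label says what the number marks; deviations of same-numbered arrays correlated at 0.657 in the Aire line, 0.552 in the Brg1 line and 0.647 between the wild types of the lines. Wild-type mTEChi minus mTEClo gave 5 members within the Aire line and 2 within the Brg1 line. With dim genes left out, 1 member (Defb42) passed for mTEChi minus mTEClo in Aire-/-. For the same in Brg1-/-, 2 passed with an intensity trend and robust prior and 0 with the arrays of the line alone. Some of these fits hold fewer arrays, and the causes of the changed counts were not tested. Reversed values were the Aire differences of Defb47 (-0.03 without Aire+/+ number 2 and -0.32 with arrays numbered 1 only, an alternative chosen after seeing the data) and Defb6 (0.01 without Aire-/- number 2). The other end of the Defb6 range, which kept its direction, was -0.41 without Aire-/- number 1. Called members kept their direction in each alternative run, and of 128 values for the Aire effect 30 lost the call. The 128 include the values from arrays numbered 1 only, which had no test and could not lose a call. They also include those from the mean of a gene's probe sets. That mean left the members' values unchanged, as each member has 1 probe set.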

Other observations

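A pair of probe sets that carry a beta-defensin symbol together with another gene's was left out of the family because their signal cannot be assigned. The probe set for Defb41 and Gm15386 read, on mTEChi arrays, 2.93 and 4.76 (log2 intensity) in Aire+/+, 2.43 and 2.76 in Aire-/-, 4.86 and 3.69 in Brg1+/+, 2.80 and 3.32 in Brg1-/-, and 2.26 to 2.44 in mTEClo. All 4 wild-type mTEChi arrays lay above every other array except that the lowest of them, 2.93, was below 3.32 in Brg1-/-. The probe set for 2700070H01Rik and Defb42 read, on mTEChi arrays, 5.10 and 5.21 in Aire+/+, 6.77 and 5.33 in Aire-/-, 5.14 and 5.28 in Brg1+/+, and 5.32 and 5.70 in Brg1-/-, and 5.46 to 5.82 in mTEClo, with each mTEChi knockout array above both arrays of its wild type.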
